A study of Homo sapiens with 16 samples.

Results

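The effect of lowering SLIRP while androgen was present was measured in 8 of the 16 RNA sequencing libraries of the study, all from LNCaP, an androgen-sensitive line of human prostate cancer cells. The libraries were chosen by their labels: 4 came from cells given a nonsense control siRNA (NS-1nM DHT) and 4 from cells given a pool of 3 siRNAs against SLIRP (SLIRP-1nM DHT). Cells of both groups were transfected with 40 nM siRNA for 24 h and then held for 24 h in serum-free medium with 1 nM dihydrotestosterone (DHT), the potent natural androgen. The 8 matching vehicle libraries (NS-Veh and SLIRP-Veh, the same siRNAs without DHT) were used only to ask whether an effect differed with androgen. All groups carried an siRNA and no untransfected library was analysed here, so that loss of SLIRP cannot be told apart from other effects of the siRNA sequences used.

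SLIRP is a small RNA-binding protein that binds the steroid receptor RNA activator SRA and has been described as a corepressor of nuclear receptors. In mitochondria it partners with LRPPRC, a protein that stabilizes mitochondrial mRNAs. Androgen raises secreted proteins of the prostate such as the kallikreins and restrains other genes. LNCaP cells in androgen both divide and make these secreted products, and the question was which functions rose and which fell when SLIRP was lowered under those conditions.

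Between 717238 and 1371449 counts were assigned to genes in each of the 8 libraries, so that a gene with 3 counts in a library stood at 2.19 to 4.18 CPM, a limit that covers counting error only. CPM are estimated counts scaled to a common library size by edgeR's TMM method. SLIRP (listed under its former symbol C14orf156, Entrez 81892, chr14:78174414-78227447 of hg19) checked the labels. It measured 44.9, 56.0, 57.0 and 61.7 CPM in the NS libraries and 2.63, 1.42, 1.95 and 8.09 CPM in the SLIRP libraries, a log2 fold change of -3.75 ± 0.30 (edgeR adjusted p = 1.16e-10). Here and below, ± after a log2 fold change is its standard error. The first principal component, with 52.98% of the variance, placed all NS libraries on one side and all SLIRP libraries on the other. On the next component (12.9%), replicate 2 of SLIRP-1nM DHT stood apart at 30.6, against -10.2 to -13.8 for the other SLIRP libraries, and list counts are also given without it where they move by more than 1.5 times. The 10 markers of luminal prostate cells fixed for this comparison summed to 4200 to 4736 CPM in the NS libraries and 3371 to 3729 CPM in the SLIRP libraries, with KRT19 at 0 in all 8. The 7 basal markers summed to at most 1.75 CPM and the 7 leukocyte markers to at most 7.01 CPM, with KRT5, TP63, PTPRC and CD3E at 0. The 8 stromal markers summed to 22.7 to 35.6 CPM in either group, with COL1A2 and DCN at 0. In RNA of whole cultures, fewer cells of a kind and less RNA per cell cannot be told apart.

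Of 10179 genes tested by edgeR's quasi-likelihood test, 1354 (13.3%) were higher and 1149 (11.3%) were lower after SLIRP knockdown at a false discovery rate (FDR) of 0.01. Genes passing this threshold are said to have risen or fallen, and every adjusted p comes from this test, corrected over the whole table by the Benjamini-Hochberg method. The median size of the log2 change among these genes was 0.71, and 369 rose (3.63%) and 259 fell (2.54%) by at least 2-fold. The 4 SLIRP libraries lay entirely above the 4 NS libraries in 16.8% of all genes tested and entirely below them in 16.1%. The median over all genes tested was -0.0086, a value that the TMM scaling sets near 0, so that every change is relative to the bulk of the genes. Counts of list members that rose or fell are to be read beside the 13.3% and 11.3% of all genes. Among the gene lists examined, the lowest median belonged to genes induced by interferon and the highest to genes of cell division.

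**Figure D1:**
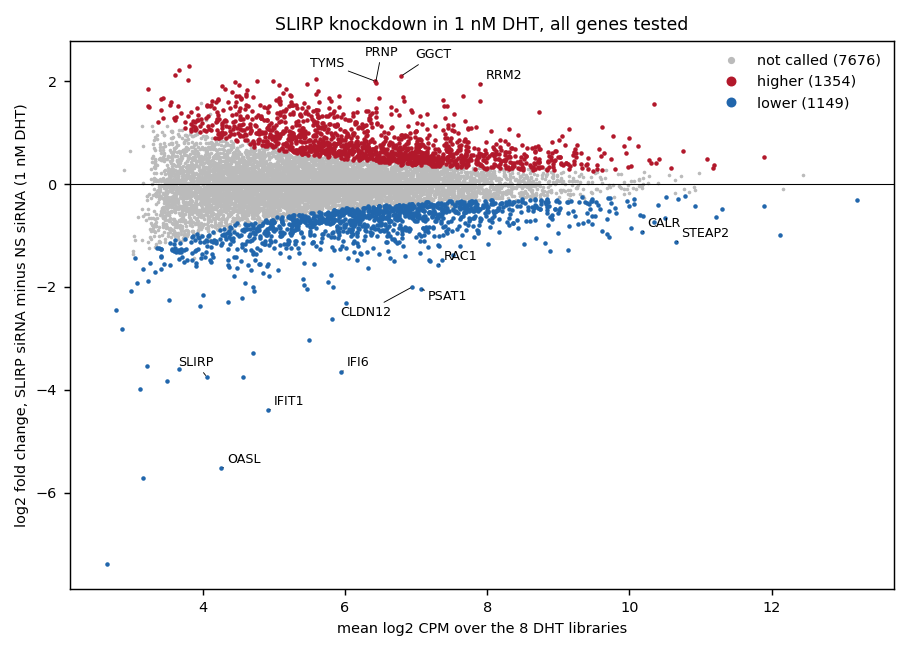
Log2 fold change (SLIRP siRNA minus NS siRNA, both in 1 nM DHT, y axis) against mean log2 CPM over the 8 libraries (x axis), with 1 point for each of 10179 genes: red, 1354 higher; blue, 1149 lower at an FDR of 0.01; grey, not called. The points below -3 are mostly lightly expressed interferon-induced genes and SLIRP itself, and the rises reach little beyond 2.

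The largest rises among well-measured genes (a mean of at least 100 counts, with groups that do not overlap, which 547 genes met) were led by GGCT (Entrez 79017, chr7:30536237-30544457 of hg19), which encodes gamma-glutamylcyclotransferase, an enzyme of glutathione turnover. GGCT measured 50.1, 48.4, 53.4 and 56.6 CPM in the NS libraries and 247, 235, 239 and 185 CPM in the SLIRP libraries. Its log2 fold change was 2.10 ± 0.12 (edgeR adjusted p = 2.30e-13), and the lowest SLIRP library was replicate 4. PRNP (Entrez 5621, chr20:4666996-4682236), the gene of the cellular prion protein, measured 41.7, 39.1, 46.4 and 41.9 CPM in the NS libraries and 174, 196, 155 and 145 CPM in the SLIRP libraries. Its change was 1.97 ± 0.13 (edgeR adjusted p = 3.16e-12). The other genes in this leading set serve DNA synthesis or the dividing nucleus. TYMS, thymidylate synthase, rose by 2.00 ± 0.15 (chr18:657653-673578), and RRM2, the small subunit of ribonucleotide reductase, by 1.94 ± 0.11 (chr2:10260825-10351851). RRM2 measured 96.0, 104, 135 and 151 CPM in the NS libraries and 465, 483, 464 and 465 CPM in the SLIRP libraries, and the 4 SLIRP values lay within a narrow band far above the NS values. MKI67, the Ki-67 proliferation antigen, rose by 1.72 ± 0.12 (chr10:129894923-129924687) and TOP2A, the topoisomerase that separates sister chromatids, by 1.70 ± 0.16 (chr17:38544777-38574148). HMGB2, a chromatin protein, rose by 1.68 ± 0.16 (chr4:174252527-174255583) and LMNB1, lamin B1 of the nuclear lamina, by 1.63 ± 0.13 (chr5:126112315-126172712). NUSAP1, a spindle microtubule protein, rose by 1.63 ± 0.15 (chr15:41612992-41673248) and PCNA, the sliding clamp of DNA polymerases, by 1.62 ± 0.13 (chr20:5095599-5107272). PCNA measured 138, 103, 151 and 153 CPM in the NS libraries and 493, 512, 354 and 334 CPM in the SLIRP libraries, with replicates 3 and 4 of the SLIRP group below replicates 1 and 2 and all of them above the NS libraries.

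The largest falls by the same rule (513 genes met it) were led by IFI6 (chr1:27992575-27998723), an interferon-induced mitochondrial protein described with the interferon genes below. PSAT1 (Entrez 29968, chr9:80912041-80945009), an aminotransferase of serine synthesis, measured 305, 266, 257 and 248 CPM in the NS libraries and 61.8, 66.8, 72.1 and 59.1 CPM in the SLIRP libraries. Its log2 fold change was -2.04 ± 0.11 (edgeR adjusted p = 8.62e-14), with no overlap between the groups. CLDN12 (Entrez 9069, chr7:90013035-90142716), a claudin of tight junctions, measured 251, 247, 262 and 229.9 CPM in the NS libraries and 55.2, 44.1, 81.9 and 59.9 CPM in the SLIRP libraries. Its change was -2.002 ± 0.13 (edgeR adjusted p = 1.26e-12). RAC1 (chr7:6414158-6443598), a small GTPase that drives lamellipodia, measured 283, 263, 274 and 272 CPM in the NS libraries and 86.8, 75.4, 89.7 and 108 CPM in the SLIRP libraries and changed by -1.57 ± 0.11 (edgeR adjusted p = 4.10e-12). The NS values of RAC1 lay close together and far above the SLIRP values. Membrane transporters made up much of the rest. SLC35F5, a solute carrier, fell (log2 fold change -1.63 ± 0.15, chr2:114462588-114514270), as did SLC22A23 (-1.50 ± 0.14, chr6:3269196-3457284). SLC30A9, of the zinc transporter family, changed by -1.49 ± 0.11 (chr4:41992519-42092478), and SLC7A11, the cystine-glutamate exchanger, by -1.48 ± 0.12 (chr4:139085251-139163503). RAB6A, a GTPase of Golgi transport, changed by -1.50 ± 0.11 (chr11:73386683-73472182), and CTBP2, a transcriptional corepressor, by -1.44 ± 0.12 (chr10:126672886-126849739). SLIRP, GGCT, TYMS, NUSAP1, IFI6, CLDN12, RAB6A, SLC22A23, SLC7A11 and CTBP2 overlap other annotated loci and the strand of counting is not given in the sources used here, so that reads of those loci cannot be told apart from theirs.

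**Figure D2:**
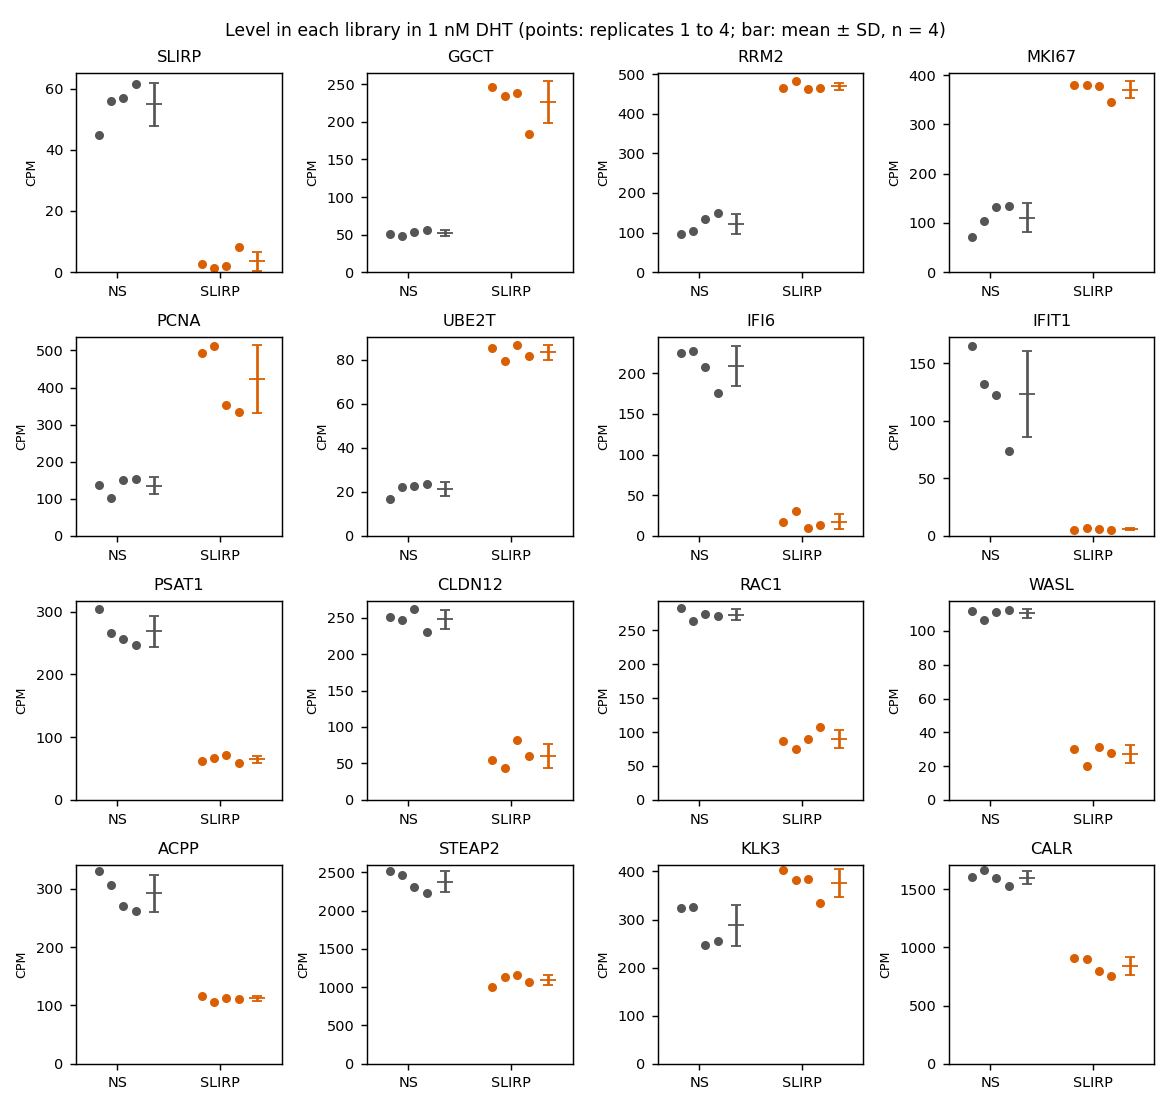
Level in CPM (y axis, starting at 0) of 16 genes in each library in 1 nM DHT: points are replicates 1 to 4 from left to right, grey for NS and orange for SLIRP siRNA, and the bar is the mean ± SD (n = 4). The groups do not overlap in any of the 16 panels, with KLK3 the closest (NS at most 325, SLIRP at least 334 CPM).

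Genes of DNA replication, which license origins and build the fork, rose together: 38 of 48 tested members were higher and 0 lower, against 13.3% and 11.3% of all genes, with a median log2 fold change of 1.04. CLSPN, the fork adaptor claspin, went from 25.2 ± 5.56 to 90.9 ± 22.6 CPM (SD, n = 4), a change of 1.81 ± 0.19 (edgeR adjusted p = 1.75e-08). MCM2, of the replicative helicase, went from 59.0 ± 16.2 to 169 ± 34.1 CPM and changed by 1.498 ± 0.15. RFC4, of the clamp loader, changed by 1.53 ± 0.19. Named after their values were seen, MCM7 of the same helicase changed by 1.18 ± 0.13 and UHRF1, which recruits the maintenance DNA methyltransferase to replicated DNA, by 1.12 ± 0.17. Of the 21 genes of deoxynucleotide synthesis, 9 rose and 0 fell (median 0.48). RRM1, the large subunit of ribonucleotide reductase, changed by 1.15 ± 0.11, less than RRM2.

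Many replication genes carry sites for E2F factors, the transcription factors that the retinoblastoma protein restrains. The letters TTTGGCGC or TTTCCCGC, searched on both strands of the 250 bases before the start site in the RefSeq promoter table (GRCh38.p14), occurred in 11 of the 41 replication genes with an entry (26.8%), against 3.31% of the 8309 tested genes with an entry and 1.96% of all 27305 promoters. This is a description of letters and not of binding. Here and in the motif counts below, every listed member with an entry was counted, whether or not it changed. The shares therefore describe the lists and not the effect of the siRNA. The stretches around the match are shown for the 3 largest rises with one (mean count of at least 30), with the match in capitals. They lie at chr20:5126649-5126706 (minus strand), chr7:100101552-100101609 (minus strand) and chr19:4909462-4909500 (plus strand), and are read on the strand of the gene.
PCNA: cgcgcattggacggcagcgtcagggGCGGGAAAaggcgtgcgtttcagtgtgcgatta
MCM7: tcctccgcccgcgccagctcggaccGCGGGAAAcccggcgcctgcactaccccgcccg
UHRF1: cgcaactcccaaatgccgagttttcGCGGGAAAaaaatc

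Mitosis genes had the largest share of rises among the lists with at least 9 tested members: 61 of 62 tested members rose and 0 fell, with a median log2 fold change of 1.33. CEP55, which recruits the machinery that cuts the bridge between daughter cells, measured 18.8, 18.4, 26.3 and 27.2 CPM in the NS libraries and 106, 88.2, 99.4 and 84.2 CPM in the SLIRP libraries. It changed by 2.04 ± 0.17 (edgeR adjusted p = 1.87e-10), with no overlap. KIF2C, a kinesin that depolymerizes microtubules at the centromere, changed by 1.92 ± 0.21, and SGOL2, a shugoshin that protects cohesin, by 1.71 ± 0.23. Among the 33 genes of centromere and kinetochore, 23 rose, 1 fell and the median was 1.25. SKA3 (log2 fold change 1.68 ± 0.20), CENPF (1.43 ± 0.16), NDC80 (1.42 ± 0.19) and MLF1IP (1.42 ± 0.15), which tie chromosomes to spindle microtubules or build the inner kinetochore, were its largest rises with at least 30 counts on average. CENPN, which reads the centromeric nucleosome, went the other way, from 109.9 ± 5.01 to 80.1 ± 4.27 CPM (change -0.45 ± 0.12 (edgeR adjusted p = 0.00284)).

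The letters TTTGAA, the core of the cell cycle homology region read by the DREAM and MuvB complexes, occurred on either strand before 28 of the 54 mitosis genes with an entry (51.9%), against 8.26% of tested genes and 13.6% of all promoters. They occurred before none of the 41 replication genes (0.0%). The stretches of the 3 largest rises with a match are shown with the matches in capitals, to set beside the replication genes above. They lie at chr10:93496471-93496526 (plus strand), chr10:128126424-128126495 (minus strand) and chr17:40418017-40418115 (minus strand) of GRCh38.p14.
CEP55: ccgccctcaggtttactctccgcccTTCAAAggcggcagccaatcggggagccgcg
MKI67: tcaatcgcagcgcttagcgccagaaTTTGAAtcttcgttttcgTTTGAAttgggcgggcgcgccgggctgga
TOP2A: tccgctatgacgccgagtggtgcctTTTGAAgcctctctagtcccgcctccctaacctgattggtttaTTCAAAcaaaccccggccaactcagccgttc

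Repair by homologous recombination and the Fanconi pathway, which mend broken or crosslinked DNA during S phase, moved in the same direction, with 18 of 33 members higher, 0 lower and a median of 0.87. UBE2T, the E2 enzyme of the Fanconi pathway, measured 16.7, 22.3, 22.8 and 23.5 CPM in the NS libraries and 85.5, 79.6, 86.8 and 81.7 CPM in the SLIRP libraries and changed by 1.95 ± 0.16 (edgeR adjusted p = 2.47e-10). XRCC2 changed by 1.42 ± 0.20, the helicase gene BRIP1 by 1.41 ± 0.20 and BRCA1 by 1.39 ± 0.14. Of the 26 regulators of entry into S phase, 12 rose and 0 fell (median 0.45). E2F1, an activator of replication genes, went from 27.4 ± 7.40 to 85.1 ± 9.12 CPM and changed by 1.599 ± 0.17. CCNE2, a cyclin that drives S phase entry, changed by 0.78 ± 0.16. CDKN1A, the CDK inhibitor p21, which restrains that entry, measured 146, 129.7, 115 and 116 CPM in the NS libraries and 217, 219, 311 and 284 CPM in the SLIRP libraries and rose by 1.05 ± 0.12 (edgeR adjusted p = 4.46e-08). CKS2, a CDK-binding protein, passed the test (change 0.79 ± 0.21) although its groups overlapped.

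The control libraries were not alike in these lists. As the mean over tested members of log2 CPM minus each member's own mean over the 8 libraries, mitosis genes stood at -1.09, -0.91, -0.34 and -0.28 in the NS libraries and 0.62, 0.64, 0.73 and 0.64 in the SLIRP libraries. NS replicates 1 and 2 were thus lower than NS replicates 3 and 4, and the same order held in the lists of DNA replication, kinetochore, homologous recombination and G1/S regulators. With only NS replicates 3 and 4 as controls, 50 mitosis genes and 29 replication genes rose, with medians of 1.01 and 0.86. The kinetochore list then gave 13 members higher in place of 23, and the G1/S regulators 6 in place of 12. With only replicates 1 and 2 as controls the mitosis median was 1.76. What set the 2 pairs of NS libraries apart was not tested.

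The 26 tested targets of p53, which guards against damaged DNA, include CDKN1A, already counted among the regulators of entry into S phase. With it, the list gave 10 higher and 2 lower, with a median of 0.56. Among all genes 13.3% were higher and 11.3% lower. GDF15, a secreted stress factor, went from 102 ± 12.1 to 169.9 ± 18.3 CPM and changed by 0.75 ± 0.11. AEN, a nuclease of apoptosis, changed by 0.86 ± 0.15 and PLK2, a polo-like kinase, by 0.71 ± 0.14. TP53INP2 changed by -0.74 ± 0.16 and SESN1, a sestrin, by -0.56 ± 0.11. Of the 12 tested BCL2 family genes, which set the threshold for apoptosis, 0 rose and 3 fell, beside the same shares of all genes. The survival factor MCL1 measured 378, 382, 399 and 386 CPM in the NS libraries and 251, 260.2, 302 and 275 CPM in the SLIRP libraries and changed by -0.50 ± 0.083 (edgeR adjusted p = 2.55e-05). BCL2L1, the gene of BCL-xL, changed by -0.62 ± 0.14, and the effector-like member BOK by -1.09 ± 0.19.

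**Figure D3:**
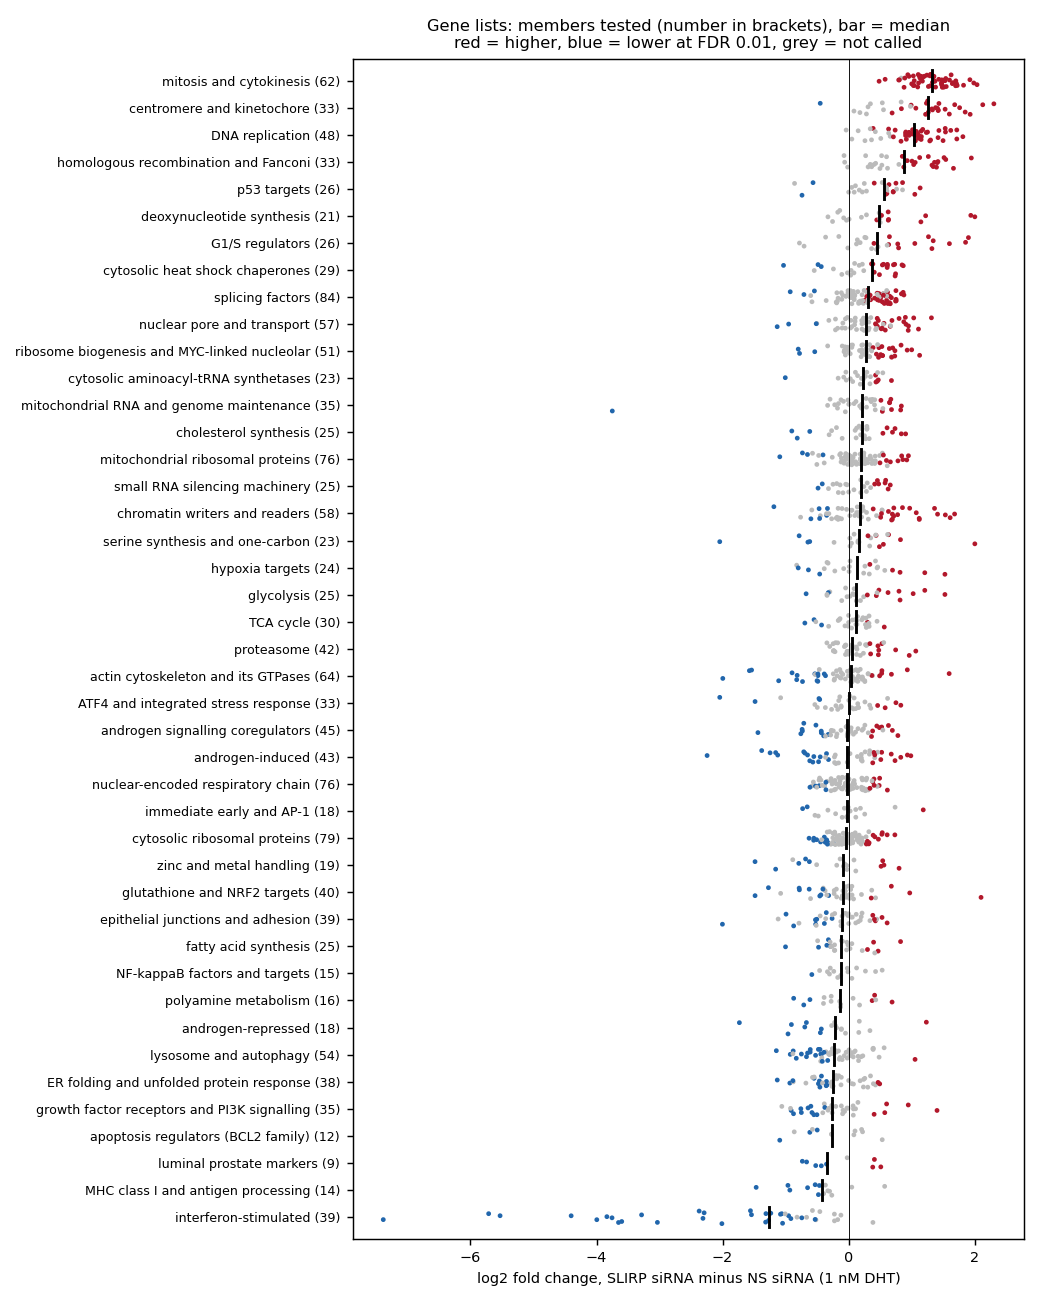
Log2 fold change (x axis, SLIRP siRNA minus NS siRNA in 1 nM DHT) of every tested member of each gene list with at least 9 tested members (rows, number tested in brackets), ordered by median; black bars are medians, red points rose, blue points fell at an FDR of 0.01 and grey points were not called. Mitosis (1.33), kinetochore (1.25) and DNA replication (1.04) lie at the top, and interferon-stimulated genes (-1.27) lie alone at the bottom with a tail beyond -4.

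Interferon-stimulated genes, whose products block viruses at several steps and which cells switch on through a factor that holds STAT2 and IRF9, fell as a group. Of 56 listed, 39 were tested, of which 28 were lower and 0 higher, with a median log2 fold change of -1.27. The other 17 had too few counts to be tested, and together they held 505 counts in the NS libraries and 81 in the SLIRP libraries. IFI6 measured 225, 228, 208 and 176 CPM in the NS libraries and 17.1, 31.3, 9.75 and 12.9 CPM in the SLIRP libraries. Its change of -3.65 ± 0.18 (edgeR adjusted p = 1.70e-14) was the largest fall among well-measured genes. IFIT1, which binds viral RNA caps, measured 165, 132, 123 and 74.2 CPM in the NS libraries and 5.26, 7.11, 5.85 and 4.86 CPM in the SLIRP libraries and changed by -4.40 ± 0.28 (edgeR adjusted p = 1.27e-12). OASL, an OAS-like antiviral protein, measured 163, 112, 88.5 and 62.4 CPM in the NS libraries and 2.63, 0, 1.95 and 3.24 CPM in the SLIRP libraries and changed by -5.53 ± 0.39 (edgeR adjusted p = 1.01e-11), with 8 counts left over the 4 SLIRP libraries. IFIT3, which joins IFIT1, changed by -3.75 ± 0.32. In all of these every SLIRP library lay below every NS library.

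A further 5 members are named after their values were seen. ISG15, a ubiquitin-like modifier, measured 159.7, 150.4, 135 and 126 CPM in the NS libraries and 22.4, 25.6, 24.4 and 38.04 CPM in the SLIRP libraries and changed by -2.31 ± 0.16. RSAD2, the antiviral enzyme viperin, had 161 counts over the NS libraries and 2 over the SLIRP libraries. XAF1 had 93 counts over the NS libraries and 0 over the SLIRP libraries, which is at least 24.6-fold lower, taking 3 counts over the group as the floor. IRF9, the DNA-binding subunit of the factor that switches on the list, changed by -2.37 ± 0.31. STAT2 went from 57.5 ± 5.04 to 75.2 ± 10.1 CPM and did not pass the test (change 0.39 ± 0.14, edgeR adjusted p = 0.0337).

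The NS libraries spread here too, in the reverse order of the cell cycle lists. On the scale of centred log2 CPM used above, interferon-stimulated genes stood at 1.01, 0.93, 0.79 and 0.59 in the NS libraries and -0.79, -0.83, -0.86 and -0.83 in the SLIRP libraries. OASL and RSAD2 were highest in NS replicate 1 and lowest in NS replicate 4, and even replicate 4 exceeded every SLIRP library. With only NS replicates 3 and 4 as controls, 22 members were lower and the median was -1.13. Of the 7 leukocyte markers, 4 were at 0 in all 8 libraries, and CD68 had the highest mean (2.45 CPM). The list summed to 2.94 to 7.01 CPM in the NS libraries and 0.81 to 4.87 CPM in the SLIRP libraries.

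The core of the interferon-stimulated response element (ISRE), GAAA repeated after a gap of any 2 bases and bound by that factor, occurred on either strand before 25 of the 44 interferon-stimulated genes with a RefSeq entry (56.8%), against 2.2% of tested genes and 3.07% of all promoters. As above, this share covers all listed members with an entry, changed or not, and is no test of what lowered them. The stretches of the 3 largest falls with a match are shown with the matches in capitals. They lie at chr10:89392482-89392554 (plus strand), chr10:89327816-89327909 (plus strand) and chr1:27672251-27672373 (minus strand) of GRCh38.p14, and hold 2, 2 and 3 matches.
IFIT1: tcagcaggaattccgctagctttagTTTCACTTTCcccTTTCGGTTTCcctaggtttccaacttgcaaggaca
IFIT3: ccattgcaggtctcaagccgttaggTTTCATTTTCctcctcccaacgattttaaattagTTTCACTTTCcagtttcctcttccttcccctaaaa
IFI6: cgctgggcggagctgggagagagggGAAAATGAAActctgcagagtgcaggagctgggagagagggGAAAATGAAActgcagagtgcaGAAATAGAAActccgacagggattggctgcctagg

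Class I antigen presentation, which shows peptides to T cells and shares regulators with the interferon list, gave 0 members higher and 7 of 14 lower (median -0.43). HLA-C measured 174, 169.6, 175 and 165 CPM in the NS libraries and 109, 109, 108 and 108 CPM in the SLIRP libraries and changed by -0.65 ± 0.10 (edgeR adjusted p = 8.16e-06). HLA-B changed by -0.96 ± 0.20 and TAPBP, the tapasin of the peptide-loading complex, by -0.53 ± 0.10. HLA genes resemble each other closely, so that reads may be split among them. CALR, calreticulin, which serves both this complex and folding in the endoplasmic reticulum (ER), measured 1605, 1662, 1591 and 1526 CPM in the NS libraries and 908, 900.0, 794 and 752 CPM in the SLIRP libraries and changed by -0.93 ± 0.073 (edgeR adjusted p = 9.36e-11). Of 38 genes of ER folding and the unfolded protein response, 11 fell and 2 rose (median -0.25). HERPUD1, of ER-associated degradation, changed by -1.13 ± 0.14, the stress sensor ATF6 by -0.88 ± 0.12 and the chaperone gene DNAJC3 by -0.55 ± 0.10. SSR1 (change 0.49 ± 0.078) and EDEM1 (0.47 ± 0.12) were the 2 that rose. Without SLIRP replicate 2, 1 rose.

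The androgen-induced genes showed no common direction. Of 43 tested, 10 rose and 15 fell, both above the 13.3% and 11.3% of all genes, and the median was -0.021. KLK3, which encodes prostate specific antigen, measured 323, 325, 248 and 255 CPM in the NS libraries and 404, 382, 384 and 334 CPM in the SLIRP libraries and changed by 0.38 ± 0.10 (edgeR adjusted p = 0.00246). The gap between its groups was small beside the spread within them, and its adjusted p lay between 0.0113 and 0.0183, past the threshold, without NS replicate 3 or 4 or SLIRP replicate 1 or 3. KLK2, its neighbouring kallikrein, measured 36.5, 26.9, 24.5 and 24.97 CPM in the NS libraries and 51.3, 68.2, 43.9 and 52.6 CPM in the SLIRP libraries and changed by 0.93 ± 0.18 (edgeR adjusted p = 2.07e-04). FKBP5, a cochaperone of steroid receptors, changed by 0.52 ± 0.12, TMPRSS2, a surface protease, by 0.51 ± 0.10, and NCAPD3, a condensin subunit, by 0.99 ± 0.12. ACPP, prostatic acid phosphatase, went the other way: it measured 329.7, 306, 271 and 262 CPM in the NS libraries and 117, 107, 113 and 111 CPM in the SLIRP libraries and changed by -1.38 ± 0.10 (edgeR adjusted p = 2.67e-11). STEAP2, a metalloreductase abundant in these cells, measured 2521, 2465, 2303 and 2231 CPM in the NS libraries and 1003, 1132, 1154 and 1071 CPM in the SLIRP libraries and changed by -1.13 ± 0.07 (edgeR adjusted p = 9.77e-13). ZBTB10 changed by -1.25 ± 0.13 and SPDEF, an ETS factor of luminal cells, by -0.71 ± 0.15. Thus classical androgen targets lay on both sides, the kallikreins KLK2 and KLK3 above and the phosphatase and metalloreductase below their control levels. A further kallikrein, KLK4, did not pass the test (change -0.20 ± 0.14, edgeR adjusted p = 0.285), and KLK15 had too few counts to be tested.

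Of 18 tested androgen-repressed genes, 1 rose and 7 fell (median -0.22). CDC6, a replication licensing factor also counted in the DNA replication list, was the member that rose (change 1.23 ± 0.16). Whether members of this list or of the androgen-induced list responded to DHT in these cells was not tested here. PRKACB, a catalytic subunit of protein kinase A, went from 1078 ± 24.6 to 571 ± 80.0 CPM and changed by -0.91 ± 0.082, and SI, sucrase-isomaltase, changed by -1.73 ± 0.25. OPRK1, an opioid receptor, changed by -0.70 ± 0.18 and TMEM38B by -0.67 ± 0.16. Among 45 tested genes of the list of androgen signalling coregulators, 8 rose and 10 fell, beside 13.3% and 11.3% of all genes. CTBP2, which measured 170.1, 144, 169 and 154 CPM in the NS libraries and 56.5, 65.4, 66.3 and 48.6 CPM in the SLIRP libraries, was the largest fall in that list. NRIP1, a ligand-dependent corepressor, went from 239 ± 40.2 to 413 ± 45.6 CPM and changed by 0.78 ± 0.10. TNK2, the Ack1 kinase, changed by -0.76 ± 0.16, RNF14 by -0.74 ± 0.13 and HOXB13, a homeobox factor of prostate cells, by -0.73 ± 0.11. HDAC3, the deacetylase of the NCOR complexes, passed the test (change 0.69 ± 0.18) with overlapping groups. SRA1, the gene of the RNA that SLIRP binds, went from 29.2 ± 5.92 to 25.8 ± 0.410 CPM and did not pass the test (change -0.19 ± 0.21, edgeR adjusted p = 0.495).

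The luminal markers, whose sum was given above, fell in 5 and rose in 3 of 9 tested. FOLH1, prostate specific membrane antigen, went from 1821 ± 121 to 1149 ± 90.0 CPM and changed by -0.67 ± 0.073, and the keratin KRT8 changed by -0.52 ± 0.10 while its partner KRT18 stayed within the spread (change -0.023 ± 0.093, edgeR adjusted p = 0.871). EPCAM changed by 0.41 ± 0.11. ENO2, the leading member of the neuroendocrine list, did not pass the test (change 0.45 ± 0.21, edgeR adjusted p = 0.0914), and CHGB and INSM1 were at 0. The 9 neuroendocrine markers summed to 24.5 to 28.2 CPM in the NS libraries and 30.2 to 41.3 CPM in the SLIRP libraries.

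**Figure D4:**
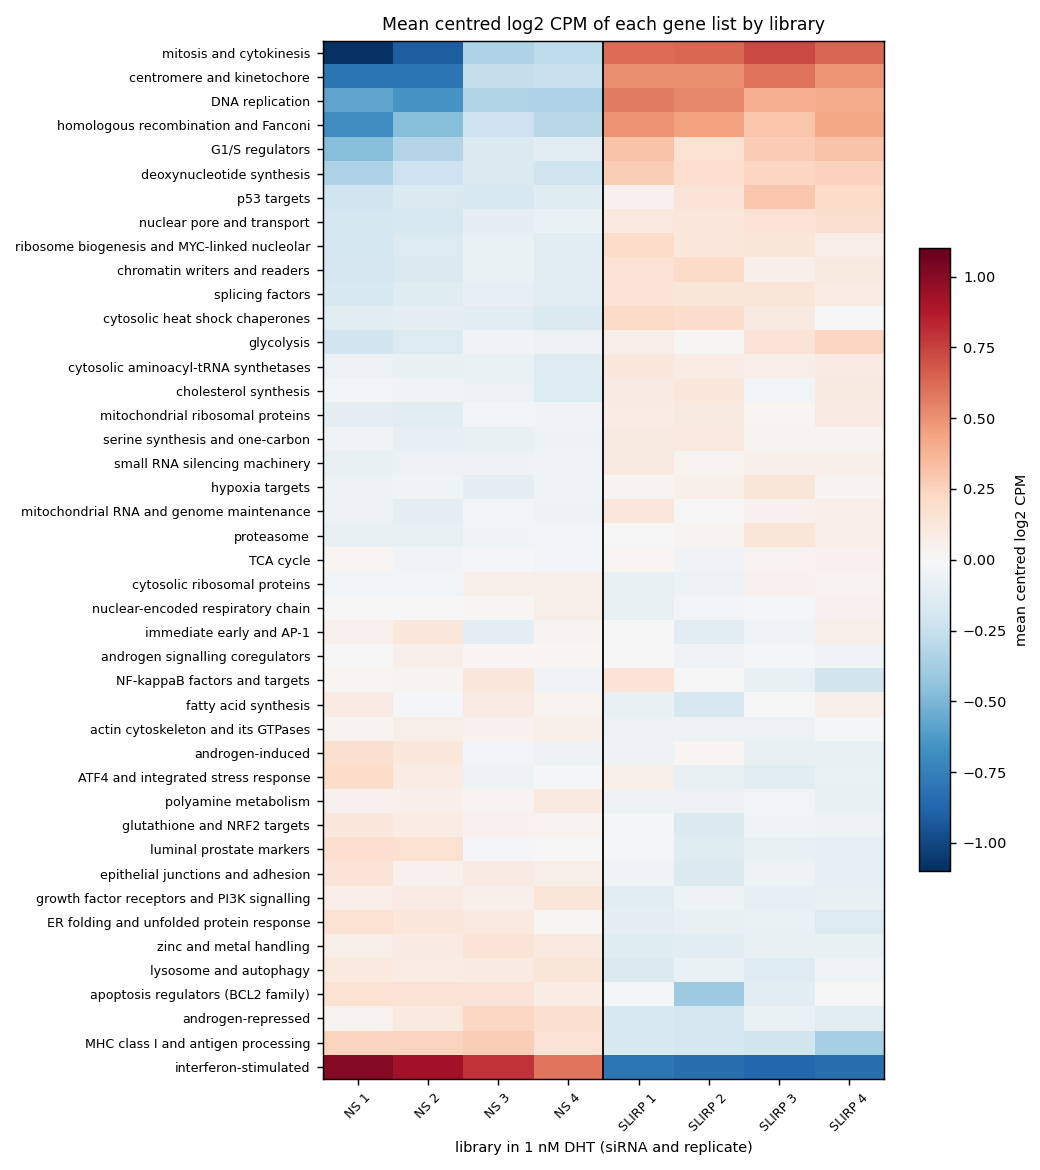
Mean over tested members of log2 CPM, each centred on the member's own mean over the 8 libraries (color, red higher and blue lower), for each gene list with at least 9 tested members (rows) in each library in 1 nM DHT (columns, siRNA and replicate). Mitosis runs from -1.09, -0.91, -0.34 and -0.28 in the NS libraries and 0.62, 0.64, 0.73 and 0.64 in the SLIRP libraries, and interferon-stimulated genes run the opposite way.

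Lists of RNA splicing, nuclear pore and transport, chromatin and small RNA silencing each gave more rises than falls. Of 84 splicing factors 36 rose and 3 fell (median 0.30). SNRPD3, a core snRNP protein, went from 151 ± 4.13 to 272 ± 46.2 CPM and changed by 0.84 ± 0.11. LSM3 changed by 0.88 ± 0.18, DDX46 by 0.75 ± 0.11 and SNRPF by 0.75 ± 0.15. QKI, a regulator of alternative splicing, changed by -0.93 ± 0.14 and SFRS9, an SR protein, by -0.71 ± 0.11. Of 57 nuclear pore and transport genes, 20 rose and 3 fell (median 0.28). NUP93, of the pore scaffold, went from 155.7 ± 21.2 to 335 ± 32.5 CPM and changed by 1.11 ± 0.10. XPO4, an exportin, changed by 1.31 ± 0.15, the importin KPNA2 by 1.03 ± 0.11 and KPNA3 by 0.95 ± 0.16. SEC13 changed by -1.13 ± 0.17 and NUPL1 by -0.95 ± 0.13. Of 58 chromatin writers and readers, 20 rose and 6 fell (median 0.19). DNMT1, the maintenance DNA methyltransferase, went from 74.5 ± 15.6 to 203 ± 39.9 CPM and changed by 1.41 ± 0.14. HELLS, a remodeller needed for DNA methylation, changed by 1.61 ± 0.19 and ASF1B, a histone chaperone, by 1.53 ± 0.20. CBX3, heterochromatin protein 1 gamma, measured 227, 234, 256 and 231 CPM in the NS libraries and 84.1, 109, 108 and 112 CPM in the SLIRP libraries and changed by -1.19 ± 0.10 (edgeR adjusted p = 8.62e-10), and HDAC6 changed by -0.60 ± 0.15. Of 25 genes of small RNA silencing, the machinery that siRNAs use, 7 rose and 2 fell, beside 13.3% and 11.3% of all genes. EIF2C2, the slicer Argonaute, changed by 0.66 ± 0.13, DICER1 by 0.59 ± 0.10, CNOT6 by 0.63 ± 0.11 and TSN by 0.58 ± 0.14. TNRC6B changed by -0.49 ± 0.10 and ADAR, an RNA editing enzyme with an interferon-induced form, by -0.42 ± 0.077.

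Genes of ribosome making and of protein folding followed. Of 51 genes of ribosome biogenesis and the MYC network, 17 rose and 3 fell (median 0.28). TCOF1, treacle, which supports transcription of ribosomal RNA genes, went from 38.1 ± 8.63 to 85.2 ± 9.93 CPM and changed by 1.13 ± 0.16. POLR1B, of RNA polymerase I, changed by 0.93 ± 0.14, UTP20 by 0.83 ± 0.13 and DDX10 by 0.73 ± 0.14. Of the falls, MXI1 changed by -0.80 ± 0.14 and MXD4, with overlapping groups, by -0.54 ± 0.14. These encode repressors that pair with MAX, the partner of MYC, and do not build ribosomes. The 79 cytosolic ribosomal proteins themselves split evenly, 11 higher and 11 lower, each 13.9% of the list, with a median of -0.037. Without replicate 2 of the SLIRP group, 9 were higher and 6 lower. Without NS replicate 1, 7 were higher, without NS replicate 4, 7 were lower, and without SLIRP replicate 1, 6 were lower. RPL26 changed by 0.61 ± 0.09, RPS26 by 0.53 ± 0.086 and RPL11 by 0.53 ± 0.079. RPS9 changed by -0.63 ± 0.11 and RPL36 by -0.56 ± 0.08. Many ribosomal protein genes have near-identical copies that can share reads.

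Of 29 genes in a list of heat shock chaperones, most of them cytosolic, 15 rose and 3 fell (median 0.36). The list also counts the transcription factor gene HSF1 and the mitochondrial chaperonin genes HSPE1 and HSPD1. HSPE1 rose (change 0.61 ± 0.11), and HSPD1 did not pass the test (edgeR adjusted p = 0.0112). TCP1, a subunit of the chaperonin that folds actin and tubulin, measured 370.4, 378, 424 and 350.3 CPM in the NS libraries and 669, 734, 741 and 636 CPM in the SLIRP libraries and changed by 0.87 ± 0.081 (edgeR adjusted p = 2.62e-09). CCT5 of the same ring changed by 0.74 ± 0.081, CHORDC1, an HSP90 cochaperone, by 0.74 ± 0.12, and HSPA4L by 0.85 ± 0.15. HSF1, the heat shock transcription factor, changed by -0.49 ± 0.12. HSPA1B, an inducible HSP70 gene with a near-identical copy, changed by -1.03 ± 0.10. Of 42 proteasome genes 9 rose and 0 fell, although the median was only 0.054. PSMA5 changed by 1.07 ± 0.16, the assembly chaperone PSMG1 by 0.96 ± 0.14, PSMD1 by 0.53 ± 0.10 and PSMC2 by 0.48 ± 0.13. Leaving out NS replicate 1, SLIRP replicate 3 or SLIRP replicate 2 gave 5, 5 and 6 proteasome genes higher. Lysosome and autophagy genes, the other route of protein breakdown, gave 17 of 54 lower and 1 higher (median -0.22). SQSTM1, the autophagy receptor p62, measured 440.4, 426, 352 and 364 CPM in the NS libraries and 229, 208, 166 and 229.8 CPM in the SLIRP libraries and changed by -0.93 ± 0.10 (edgeR adjusted p = 4.46e-08). CTSD, cathepsin D, changed by -0.83 ± 0.11 and PSAP, prosaposin, by -0.75 ± 0.076. GLB1, lysosomal beta-galactosidase, was the member that rose (change 1.05 ± 0.20), and 2 rose without SLIRP replicate 2. With only NS replicates 3 and 4 as controls, 8 lysosome genes were lower, and without NS replicate 2, 11 were.

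SLIRP acts in mitochondria, where it binds mRNAs encoded by the mitochondrial genome. Those mRNAs were not analysed here, but nuclear genes that serve the same compartment were. Of 76 nuclear-encoded respiratory chain subunits, 7 rose and 5 fell, 9.21% and 6.58% beside 13.3% and 11.3% of all genes, with a median of -0.022. NDUFA6 changed by 0.61 ± 0.15 and ATP5J by 0.49 ± 0.14. NDUFS5 (0.48 ± 0.13) and UQCRB (0.40 ± 0.12) passed the test with overlapping groups. NDUFA4 changed by -0.61 ± 0.13 and UQCRQ by -0.53 ± 0.12. Without replicate 2 of the SLIRP group the counts were 3 higher and 4 lower. The higher count ran from 1 (without NS replicate 2) to 6 when any 1 library was left out, and the lower count from 3 (without NS replicate 1 or 4) to 6. LRPPRC, the partner of SLIRP, measured 227, 196, 216 and 218 CPM in the NS libraries and 338, 387, 333 and 320.5 CPM in the SLIRP libraries and changed by 0.68 ± 0.089 (edgeR adjusted p = 7.02e-07). Of the 35 genes of mitochondrial RNA and genome maintenance 8 rose and 1 fell, the latter being SLIRP itself. GFM2 changed by 0.84 ± 0.14, KIAA0391, the nuclease of mitochondrial RNase P, by 0.65 ± 0.15, and PPRC1, with overlapping groups, by 0.67 ± 0.16. Of 76 mitochondrial ribosomal proteins 9 rose and 4 fell (11.8% and 5.26%, both under the shares of all genes, median 0.19), and without SLIRP replicate 2 these were 5 and 1. MRPL42 changed by 0.95 ± 0.13, MRPS9 by 0.92 ± 0.19, MRPL4 by 0.86 ± 0.14 and MRPL22 by 0.84 ± 0.21. MRPL34 changed by -0.73 ± 0.20 and MRPL18 by -0.65 ± 0.15. Of 30 genes of the TCA cycle 2 rose and 3 fell, 6.67% and 10% and again under the shares of all genes, among them DLAT (0.57 ± 0.12), CS (0.30 ± 0.075), IDH3G (-0.69 ± 0.17) and ACO1 (-0.43 ± 0.12). Without SLIRP replicate 2, 1 rose.

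Sugar and lipid metabolism changed gene by gene. Of 25 glycolysis genes 9 rose and 2 fell (median 0.12). LDHA, lactate dehydrogenase A, measured 433, 449.7, 521 and 522 CPM in the NS libraries and 714, 679.6, 809 and 765 CPM in the SLIRP libraries and changed by 0.62 ± 0.082 (edgeR adjusted p = 6.89e-07). SLC16A1, a lactate transporter, changed by 1.02 ± 0.11, hexokinase 2 (HK2) by 0.82 ± 0.18 and the platelet phosphofructokinase PFKP by 0.80 ± 0.18. The muscle form PFKM went the other way (change -0.67 ± 0.10), as did ALDOA (-0.32 ± 0.074). Of 24 genes in a list of hypoxia targets 5 rose and 3 fell (20.8% and 12.5%). HK2, PFKFB3 and PFKFB4 were among these rises and are also counted with the glycolysis genes. HIF1A and ARNT, also in the list, encode the hypoxia factor itself and are not counted here as its targets by function. ARNT changed by 0.70 ± 0.14, and the paralogues BNIP3L and BNIP3 changed by 0.34 ± 0.081 and -0.64 ± 0.11, in opposite directions. Of 25 cholesterol synthesis genes 6 rose and 3 fell (median 0.21), beside 13.3% and 11.3% of all genes. INSIG1, which retains the sterol sensor in the ER, measured 297, 276, 328 and 342 CPM in the NS libraries and 479, 462, 558 and 509.8 CPM in the SLIRP libraries and changed by 0.70 ± 0.087. EBP changed by 0.90 ± 0.14, MVK, mevalonate kinase, by 0.84 ± 0.18 and IDI1 by 0.74 ± 0.10. SC5DL changed by -0.90 ± 0.12 and TM7SF2 by -0.82 ± 0.10. Of 25 genes of fatty acid synthesis 4 rose and 5 fell (16% and 20%, beside 13.3% and 11.3% of all genes). FADS1, the delta-5 desaturase, changed by 0.82 ± 0.10 and the neighbouring desaturase gene FADS2 by -0.32 ± 0.08, again in opposite directions. Without NS replicate 4, SLIRP replicate 1 or SLIRP replicate 2, 3 members of this list were lower. ELOVL6 changed by 0.47 ± 0.10, SCD, stearoyl-CoA desaturase, by -0.48 ± 0.064, ACACA by -0.35 ± 0.082 and ACLY by -0.29 ± 0.072.

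PSAT1 was the largest fall in a list with more rises than falls. Of 23 genes of serine synthesis and folate-borne carbon, 7 rose and 4 fell (median 0.16). MTHFD1, a folate enzyme, went from 157 ± 10.8 to 279 ± 27.7 CPM and changed by 0.82 ± 0.10. PPAT, the entry enzyme of purine synthesis, changed by 0.55 ± 0.10 and PAICS, a later enzyme of the same pathway and its neighbour in the genome, by -0.79 ± 0.075. The list of ATF4 and the stress response around it, in which PSAT1 and SLC7A11 are counted, gave 4 higher and 4 lower of 33 (median 0.0037). That is 12.1% each way and near the 13.3% and 11.3% of all genes. Besides ATF4 targets, the list holds ATF4 itself, XBP1 and the kinase genes EIF2AK3 and EIF2AK4, none of which was called. SLC7A1, a cationic amino acid transporter, changed by 0.83 ± 0.10, STC2 by 0.58 ± 0.16 and ASNS, asparagine synthetase, by 0.46 ± 0.11. SLC7A11 measured 274, 256, 224 and 206 CPM in the NS libraries and 110.4, 85.3, 83.8 and 68.8 CPM in the SLIRP libraries and changed by -1.48 ± 0.12 (edgeR adjusted p = 3.34e-10). Of 23 cytosolic aminoacyl-tRNA synthetases 5 rose and 1 fell. TARS changed by 0.68 ± 0.083, MARS by 0.47 ± 0.11, VARS by 0.45 ± 0.11 and FARSB by 0.43 ± 0.12. The single fall was QARS, the glutaminyl enzyme, which measured 196, 177, 189 and 198 CPM in the NS libraries and 86.8, 71.1, 112 and 101 CPM in the SLIRP libraries and changed by -1.01 ± 0.12 (edgeR adjusted p = 9.29e-08).

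Of 40 genes of glutathione and the NRF2 response, which GGCT and SLC7A11 also belong to, 4 rose and 9 fell (median -0.095). GCLC, of glutamate-cysteine ligase, changed by 0.68 ± 0.17, KEAP1, which restrains NRF2, by -0.79 ± 0.14, GSTK1 by -0.78 ± 0.18 and GPX1 by -0.63 ± 0.15. Without replicate 2 of the SLIRP group 2 rose. Of 16 polyamine genes 3 rose and 3 fell, beside 13.3% and 11.3% of all genes. ODC1, ornithine decarboxylase, the entry enzyme of synthesis, measured 443, 434, 506 and 521 CPM in the NS libraries and 701, 731, 765 and 869 CPM in the SLIRP libraries and changed by 0.69 ± 0.083 (edgeR adjusted p = 1.88e-07). SAT1, the acetylase that starts breakdown, measured 199, 175, 136 and 139 CPM in the NS libraries and 98.6, 81.0, 80.9 and 91.4 CPM in the SLIRP libraries and changed by -0.87 ± 0.13 (edgeR adjusted p = 4.23e-06). Spermine synthase (SMS) changed by 0.37 ± 0.10, the transporter ATP13A3 by 0.41 ± 0.10 and EIF5A, the protein that carries hypusine, by -0.71 ± 0.11. AMD1 and SRM of the same list did not pass the test (edgeR adjusted p = 0.496 and 0.259). Prostate epithelium is known for its zinc, and of 19 zinc and metal genes 4 rose and 5 fell, beside the same shares of all genes. SLC39A10, a zinc importer, measured 503, 536, 598 and 569 CPM in the NS libraries and 225, 205, 310.0 and 240.4 CPM in the SLIRP libraries and changed by -1.16 ± 0.10 (edgeR adjusted p = 4.38e-10). SLC39A8 changed by 0.80 ± 0.10 and SLC39A14 by 0.56 ± 0.12, while SLC30A7 changed by -0.79 ± 0.12 and SLC39A4, with overlapping groups, by -0.68 ± 0.20.

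Among the 64 genes of the actin cytoskeleton and its GTPases, 16 fell and 7 rose (median 0.033). Besides RAC1, WASL, the N-WASP protein that nucleates actin with the Arp2/3 complex, measured 112, 107, 111 and 112 CPM in the NS libraries and 30.2, 19.9, 31.2 and 27.5 CPM in the SLIRP libraries and changed by -1.997 ± 0.15 (edgeR adjusted p = 3.52e-11). CFL2, a cofilin, changed by -1.54 ± 0.17 and VASP, which extends filaments, by -1.11 ± 0.21. DIAPH3, a formin also used in cytokinesis, changed by 1.59 ± 0.21 and ARPC5, of the Arp2/3 complex, by 0.93 ± 0.12. Of 39 junction and adhesion genes, 9 fell and 5 rose, beside 11.3% lower and 13.3% higher among all genes. ITGAV, the integrin alpha V chain, changed by -0.99 ± 0.11, CD151 by -0.53 ± 0.16 and OCLN, occludin, by -0.52 ± 0.11. Without SLIRP replicate 3, 5 members were lower. ITGB1, the integrin beta-1 chain, changed by 0.61 ± 0.09 and DSG2, a desmosomal cadherin, by 0.53 ± 0.077. Of 35 growth factor receptor and PI3K genes, 10 fell and 5 rose (median -0.26), beside the same shares of all genes. ERBB2, the HER2 receptor, measured 349, 318, 301 and 308 CPM in the NS libraries and 154, 166, 174 and 178 CPM in the SLIRP libraries and changed by -0.91 ± 0.091 (edgeR adjusted p = 9.14e-09). PIK3CB, the p110-beta kinase, changed by -0.87 ± 0.095 and the insulin receptor INSR by -0.75 ± 0.18. Without NS replicate 1 or NS replicate 2, 6 members of this list were lower. The small GTPases NRAS and RHEB rose, by 0.95 ± 0.12 and 1.40 ± 0.17. Of 18 immediate early and AP-1 genes 1 rose, SRF (1.18 ± 0.16), and 2 fell, FOSL2 (-0.73 ± 0.15) and JUND (-0.66 ± 0.11), 5.56% and 11.1% beside the 13.3% and 11.3% of all genes. Of 15 NF-kappaB factors and targets 1 fell (6.67%), BIRC2 (-0.58 ± 0.16), and 0 rose, with 0 lower without SLIRP replicate 2, while 21 AP-1 and 20 NF-kappaB list members had too few counts to be tested.

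The last comparison asked whether these effects depended on androgen. In a model of all 4 groups and 16 libraries, no gene of 10684 passed an FDR of 0.01 for a difference between the SLIRP effect in DHT and that in vehicle (0%). The vehicle libraries were less even in depth than the DHT libraries. NS-Veh replicates 1 and 2 held 512925 and 436353 counts, against 1689708 in SLIRP-Veh replicate 1, which limits this test. An unadjusted p under 0.05 was reached by 388 genes in edgeR, beside the 534 that 0.05 of the genes tested comes to, and DESeq2 gave 0 calls and 196 genes under that p. In the same model SLIRP siRNA raised 1256 genes (11.8%) and lowered 1063 (9.95%) in vehicle, and 1370 (12.8%) and 1237 (11.6%) in DHT. Of the 2503 genes called in DHT, 2494 had the same sign in vehicle and 1783 were called there in the same direction. None was called in the opposite direction. In simulated data of this design, with 10546 genes tested, differences were placed only in genes with a mean of at least 30 counts. Of these, 26% of 1.5-fold and 78% of 2-fold differences between the effects were recovered, so that small differences would mostly be missed. Recovery in genes with fewer counts was not simulated.

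List medians in this model were 1.32 in DHT and 1.603 in vehicle for mitosis, 1.04 and 1.34 for DNA replication, and -1.28 and -1.02 for interferon-stimulated genes. RRM2 changed by 1.93 ± 0.11 in DHT and 2.55 ± 0.14 in vehicle, and TYMS by 1.99 ± 0.15 and 2.68 ± 0.19. GGCT changed by 2.09 ± 0.12 in DHT and 1.89 ± 0.13 in vehicle, PSAT1 by -2.05 ± 0.14 and -2.28 ± 0.15, and CLDN12 by -2.01 ± 0.12 and -1.96 ± 0.12. KLK3 had the widest gap among the named androgen targets, 0.37 ± 0.10 in DHT and 1.11 ± 0.16 in vehicle. Its difference of -0.74 ± 0.19 had an unadjusted edgeR p of 0.000454 and did not pass the correction (adjusted p = 0.99993). KLK2 (0.92 ± 0.19 and 1.25 ± 0.50), FKBP5 (0.52 ± 0.13 and 0.73 ± 0.14) and TMPRSS2 (0.50 ± 0.11 and 0.26 ± 0.14) had positive values in both media, but in vehicle KLK2 and TMPRSS2 did not pass the test (edgeR adjusted p = 0.0528 and 0.148).

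**Figure D5:**
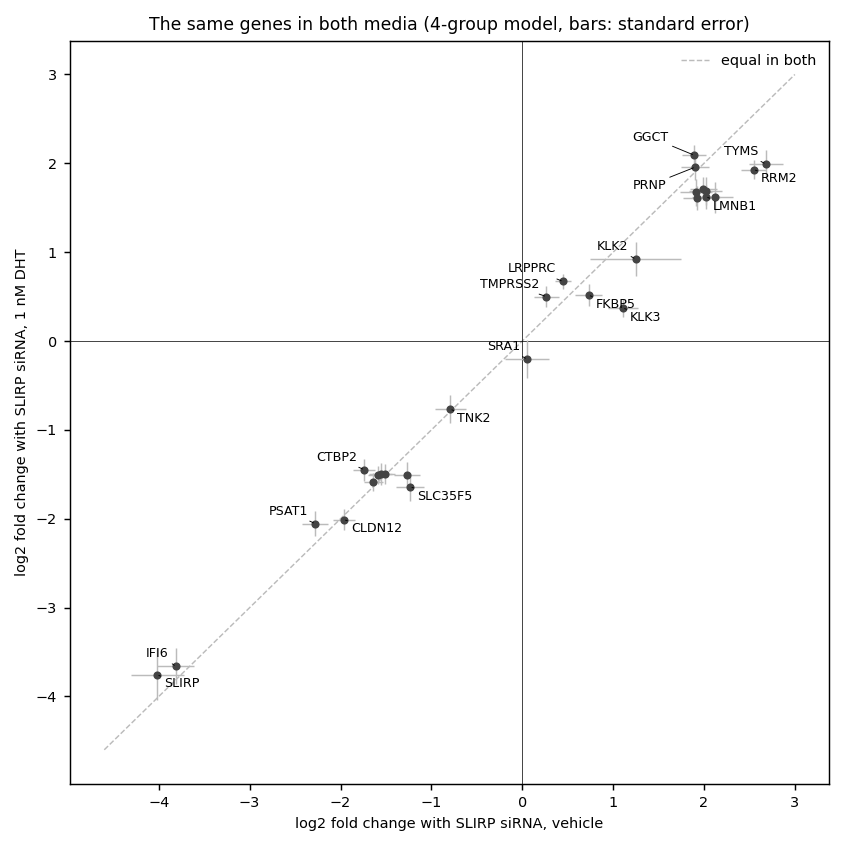
Log2 fold change with SLIRP siRNA in 1 nM DHT (y axis) against that in vehicle (x axis) from the 4-group model, for SLIRP, the 10 largest rises, the 10 largest falls and 7 genes of the androgen axis or bound to SLIRP; bars are standard errors and the dashed line marks equal effects. The points lie near the line, with KLK3 (0.37 in DHT, 1.11 in vehicle), RRM2 and TYMS to its right.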

How the data were processed

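RNA from LNCaP cells was sequenced by the authors as single 50-base reads (HiSeq). The submitters' processing notes name CASAVA, RSEM and hg19, with no versions; the annotation is not given in the sources used here. The authors deposited estimated counts as whole numbers over 20531 entries (29 without a symbol, 0.03% to 0.04% of counts, and 4480 with 0 counts in the 8 DHT libraries). They also deposited a normalized score, the counts divided by a library's upper quartile and multiplied by 1000. Replicate numbers come from the labels. By the methods, 2 experiments gave 2 biological replicates each, but the numbers are not tied to them, so the number was no block in the main model.

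Counts were analysed in R 4.3.3 with edgeR 4.0.16 (TMM, filterByExpr, glmQLFit, glmQLFTest, Benjamini-Hochberg FDR of 0.01) over the 8 DHT libraries, and in a 4-group model over 16 libraries for vehicle and for the difference of effects. Log2 CPM used a prior count of 2. Alternatives were DESeq2 1.42.0, limma 3.58.1 on the normalized score (pseudocount 1), upper-quartile and RLE scaling, other filters and thresholds, a replicate block, a prior count of 0.5, and leaving out libraries. Control libraries 1 and 2 or 3 and 4 alone were added after the data were seen. Genes named were SLIRP, the 10 largest rises and falls (FDR 0.01, mean count at least 100, separated groups), up to 4 and 2 called genes per list in its main and other direction (mean count at least 30), genes of the androgen axis and cell type markers. No gene passed for the 5 per direction of the difference of effects. The members and lists were chosen with earlier results of these data known. Listed symbols were matched by file symbol or Entrez identifier. Some genes that met these rules are not reported here. Of 222 named genes called, 126 overlap another annotated coding or lncRNA locus (GENCODE v44 on hg19), and the strand of counting is not given in the sources used here.

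On simulated data holding 200 changed genes, all with a mean count of at least 30, the model was tested first. For the DHT comparison, with 10043 genes tested, 64%, 92%, 100% and 100% of 1.5-, 2-, 3- and 4-fold changes were recovered, with 4 false calls among 182. Simulated libraries varied independently, with no shift shared by pairs of NS libraries, so recovery in the real data may be lower. Chi-square divided by its degrees of freedom was 1.21 to 2.28 between libraries of a group, above sampling noise; where replicates are not separate cultures, p-values measure only the spread between these libraries. Python 3.11.15 and matplotlib 3.10.9 drew the figures.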

Additional observations from a re-analysis of the deposited data

Results flagged for a closer look

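Of 454 groups of 4 libraries examined over the named genes, 20 (4.41%) had a library standing far from the other 3 by Dixon's 95% critical value, close to the 1 in 20 that chance gives. Of these, 7 were in SLIRP-1nM DHT replicate 4, 4 in replicate 3, 3 in replicate 1 and 2 in replicate 2, and 3 were in NS-1nM DHT replicate 1 and 1 in replicate 4.

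In SLIRP-1nM DHT replicate 4 the lone values were 345 CPM for MKI67, 21.04 CPM for HLA-B, 162.7 CPM for UQCRB, 53.4 CPM for NDUFA4 and 67.98 CPM for HELLS, all low, and 126 CPM for PFKM and 548 CPM for PSAP, both high. In replicate 3 they were 55.6 CPM for CCNE2, 153 CPM for VARS and 24.4 CPM for ENO2, low, and 76.0 CPM for HSPA4L, high. Replicate 1 was low for SPDEF (34.2 CPM), SFRS9 (82.8 CPM) and CBX3 (84.1 CPM). Replicate 2 was high for RRM2 (483 CPM) and low for PFKP (41.2 CPM). In NS-1nM DHT, replicate 1 was low for UBE2T (16.7 CPM) and GCLC (30.3 CPM) and high for INSR (100.2 CPM), and replicate 4 was low for UQCRB (164.5 CPM).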

How the results depend on the processing

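Limma on the normalized score gave 902 genes higher and 1088 lower, so that 45.3% of its calls were higher against 54.1% in the main comparison. An FDR of 0.05 gave 1904 higher and 1756 lower, and a fold change of at least 1.5 beside the FDR of 0.01 gave 924 and 744. With only NS-1nM DHT libraries 3 and 4 as controls, 805 genes were higher and 665 lower, and with libraries 1 and 2, 1033 and 833. Leaving out each library in turn gave 1130 to 1384 higher and 900 to 1102 lower. DESeq2 gave 1139 and 880, and the other scalings and filters between 1244 and 1472 higher and between 1115 and 1300 lower. Without a filter on low counts, 11 genes differed in SLIRP effect between DHT and vehicle, and leaving out each replicate number gave 0 to 1 (1 without replicate 2).

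The replicate block gave 1538 genes higher, 1357 lower and 0 for the difference of effects. Deviations of same-numbered libraries correlated at 0.062, 0.013, 0.063 and 0.202 over 7118 genes, and 2 of 4 SLIRP libraries correlated best with their own number, so the numbers were not taken as pairs. The median of all genes lay between -0.0213 and -0.0068 under the scalings, each of which centres the table and so cannot show a shift of all genes. No value of a named gene that passed the test changed direction under any of these alternatives. Genes with under about 30 counts, and 2-fold or smaller differences between DHT and vehicle, are limited by depth.

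Of 222 named genes called, 34 lost the call when at least 1 library was left out. Their highest edgeR adjusted p was reached without NS replicate 1 for FARSB (0.0234) and INSR (0.0104). Without NS replicate 2 it was highest for CENPN (0.0117) and VARS (0.0103). Without NS replicate 3 it was highest for KLK3 (0.0183) and MXD4 (0.0173). Without NS replicate 4 it was highest for SLC39A4 (0.033), SMS (0.0249), FADS2 (0.017), PPRC1 (0.0135) and HDAC6 (0.0104). Without SLIRP replicate 1 it was highest for STC2 (0.0452), GCLC (0.0211) and TSN (0.0177). Without SLIRP replicate 2 it was highest for ATP5J (0.0526), PSMC2 (0.0325), BIRC2 (0.0222), EDEM1 (0.0162), MRPL22 (0.0122) and CS (0.0119). Without SLIRP replicate 3 it was highest for CD151 (0.0781), UQCRB (0.0462), NDUFS5 (0.0432), EPCAM (0.0424), HDAC3 (0.0328), CKS2 (0.0321), MRPL34 (0.0276), HSF1 (0.0172), ACLY (0.014), GPX1 (0.0126) and IDH3G (0.0104). Without SLIRP replicate 4 it was highest for ACO1 (0.0235), OPRK1 (0.0202) and NDUFA6 (0.0174).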
